A study of Homo sapiens with 12 samples.

Results

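The 41 genes described here are genes for secreted cytokines, chemokines, growth factors, matrix proteases with their inhibitors, and insulin-like growth factor (IGF) binding proteins, together with subunits and feedback regulators of the transcription factor NF-kB and the adhesion receptor ICAM1. They were taken by gene name from a table of 62700 genes, which held all 41 of them. RNA-seq was run on HCT116 TIM-mAID cells, a line of the human colorectal carcinoma cell HCT116 in which the TIMELESS gene carries a mini auxin-inducible degron tag by CRISPR knock-in, so that the auxin analogue 5-Ph-IAA can trigger loss of the tagged replication fork protein. The cells were treated for 40 h in 4 groups of 3 biological replicates: 1 µM 5-Ph-IAA with 1 µM of ATRi, the ATR kinase inhibitor ceralasertib (the combination), ATRi alone, 5-Ph-IAA alone, and the vehicle DMSO. All 4 groups carry the tag, so none has untagged TIMELESS, and no untagged cells treated with 5-Ph-IAA were analysed here. TIMELESS protein was not measured in these files, and the mRNA does not report on degradation of the protein. The labels do not state whether the tagged line is 1 clone. In the sample titles, equal replicate numbers across the 4 groups carry the same set label. The titles do not say whether a set shares a culture or day.

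NF-kB is a family of dimers that in resting cells are held in the cytoplasm by inhibitor proteins such as the product of NFKBIA. Receptors for inflammatory ligands, and in some settings DNA damage signals, activate kinases that destroy the inhibitor, and the dimers then enter the nucleus and switch on cytokine and chemokine genes together with genes that shut the pathway off again, such as NFKBIA and TNFAIP3. Many of the same secreted factors, with matrix metalloproteinases and IGF binding proteins, make up the senescence-associated secretory phenotype, the set of proteins released by cells that have stopped dividing after lasting damage. ATR is the kinase that restrains origin firing and protects stalled forks, and TIMELESS is part of the complex that travels with the fork. The comparisons ask how these genes responded to losing either safeguard or both.

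The promoters of a few members known as NF-kB targets, and that of IGFBP6, are shown because they carry the DNA letters that the factor reads. IGFBP6 is shown for its sequence match only, and not as a known target. RefSeq promoters on GRCh38.p14, each running from 250 bases before to 50 bases after a gene's start, were found for 29 of the 41 genes, in 36 entries. The NF-kB consensus, searched on both strands, was present in 14 of the 36 entries (38.9%), against 11.3% of all 35116 promoters in the table. The 9-base form GGAATTTCC, also searched on both strands and often lying inside a consensus match, was in 8 of the 36 entries (22.2%), against 0.461% of all promoters. The AP-1 motif TGANTCA was in 7 of 36 (19.4%), against 7.71% of all. The genes were listed partly because they are known targets, so these shares describe the list, and a match is neither a bound site nor a cause of any change. In the promoters below, written 5′ to 3′ on each gene's own strand, capitals mark matches to the NF-kB consensus or to GGAATTTCC on either strand.

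CXCL1 (chr4:73869143-73869442, plus strand): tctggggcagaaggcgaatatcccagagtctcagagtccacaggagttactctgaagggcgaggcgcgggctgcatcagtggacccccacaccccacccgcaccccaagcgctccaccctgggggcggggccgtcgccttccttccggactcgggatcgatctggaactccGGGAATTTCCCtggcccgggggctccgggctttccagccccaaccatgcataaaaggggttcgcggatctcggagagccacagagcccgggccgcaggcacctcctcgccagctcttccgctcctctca

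CXCL8 (chr4:73740319-73740618, plus strand): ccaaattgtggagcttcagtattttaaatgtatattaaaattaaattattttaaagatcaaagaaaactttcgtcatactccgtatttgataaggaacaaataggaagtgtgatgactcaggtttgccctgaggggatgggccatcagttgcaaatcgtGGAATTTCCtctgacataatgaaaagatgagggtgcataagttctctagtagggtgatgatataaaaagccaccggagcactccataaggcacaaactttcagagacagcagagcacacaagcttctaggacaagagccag

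NFKBIA (chr14:35404700-35404999, minus strand): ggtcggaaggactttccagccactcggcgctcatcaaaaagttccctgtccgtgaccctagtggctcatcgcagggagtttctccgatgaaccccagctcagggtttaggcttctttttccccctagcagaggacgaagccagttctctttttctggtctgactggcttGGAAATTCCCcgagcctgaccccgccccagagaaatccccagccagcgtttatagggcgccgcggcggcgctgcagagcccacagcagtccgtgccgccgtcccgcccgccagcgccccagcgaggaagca

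TNFAIP3 (chr6:137867009-137867308, plus strand): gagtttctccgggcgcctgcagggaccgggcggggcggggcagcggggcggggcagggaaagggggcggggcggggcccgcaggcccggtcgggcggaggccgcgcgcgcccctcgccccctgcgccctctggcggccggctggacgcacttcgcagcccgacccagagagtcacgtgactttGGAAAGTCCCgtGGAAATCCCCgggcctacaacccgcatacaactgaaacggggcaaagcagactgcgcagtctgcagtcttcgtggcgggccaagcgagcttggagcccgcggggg

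BIRC3 (chr11:102317234-102317533, plus strand): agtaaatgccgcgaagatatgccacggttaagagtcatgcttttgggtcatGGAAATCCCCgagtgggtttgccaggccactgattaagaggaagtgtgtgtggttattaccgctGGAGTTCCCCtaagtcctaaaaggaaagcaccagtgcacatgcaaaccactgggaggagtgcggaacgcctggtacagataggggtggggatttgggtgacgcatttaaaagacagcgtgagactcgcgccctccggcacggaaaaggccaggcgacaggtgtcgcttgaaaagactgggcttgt

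IGFBP6 (chr12:53097417-53097716, plus strand): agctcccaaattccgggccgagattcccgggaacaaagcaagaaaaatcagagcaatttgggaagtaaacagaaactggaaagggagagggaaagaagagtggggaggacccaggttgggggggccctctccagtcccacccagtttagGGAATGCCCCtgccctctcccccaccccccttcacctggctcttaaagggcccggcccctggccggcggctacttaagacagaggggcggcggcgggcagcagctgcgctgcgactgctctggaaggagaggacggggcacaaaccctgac

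The capitals in CXCL1 are 2 overlapping consensus matches around GGAATTTCC, and those in CXCL8 are the 9-base form alone. With positions counted from the start that RefSeq uses for the promoter, TNFAIP3 has 2 matches close together, at -67 to -58 and at -55 to -46. The 2 matches in BIRC3 lie further out, at -199 to -190 and at -135 to -126. NFKBIA has 1 match at -81 to -72, and IGFBP6 has 1. The promoter entry of TNFAIP3 belongs to a start inside the outermost bounds of the gene given further on, so its matches lie downstream of the outermost start. Among the 29 genes with an entry, 15 held either NF-kB match. Those not shown were CCL20, CXCL2, CXCL3, CXCL10, ICAM1, IL6, IL32, NFKB1 and NFKB2.

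Libraries held 27.7 to 34.7 M estimated counts (M, mega), and levels are given as CPM (counts over library size in M, scaled by edgeR's TMM factors), with spreads as SD over 3 libraries. The mitochondrial share of counts was 10.7 to 13.9% in combination libraries, 7.40 to 13.4% with ATRi, 6.79 to 13.6% with 5-Ph-IAA and 6.63 to 14.9% in DMSO. DMSO replicate 2 had the highest share of all and stood apart from the other DMSO libraries at several secretory genes. The epithelial markers EPCAM, KRT8, KRT18, KRT19 and CDH1 were present in every group, whereas the intestinal markers VIL1, CDH17 and CEACAM5 reached at most 19, 5 and 1 counts in any library. Summed over the 8 epithelial markers, levels were 9978 to 11421 CPM in combination libraries, 5691 to 6490 with ATRi, 4716 to 6330 with 5-Ph-IAA and 4279 to 6372 in DMSO. In bulk RNA, fewer cells that express a gene and less RNA per cell cannot be told apart.

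Of the 41 genes, 9 were too low to test, among them IL6, IL1B and TNF. The silent genes were IL1B, the ligand that drives much of inflammatory signalling, and CCL2, the monocyte attractant, each with at most 2 counts in any library, under a floor of 3 counts (0.0846 to 0.109 CPM, depending on the library). A further 7 members were detected but too scarce for the test. They were IL6, CSF2, TNF, CXCL10, MMP3, MMP10 and MMP13, and none of them exceeded 10 counts in a library. IL6, the cytokine most used to mark the secretory phenotype, had 0, 2 and 0 counts in combination libraries, 0, 0 and 3 with ATRi, 0, 0 and 2 with 5-Ph-IAA, and 0 in all 3 DMSO libraries. Any difference in IL6 was therefore not detectable at this depth.

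TNF, the ligand that opens the NF-kB pathway through its receptors, had 6, 3 and 2 counts with the combination, 0 in all 3 ATRi libraries, 0, 3 and 0 with 5-Ph-IAA, and 1, 0 and 1 in DMSO. MMP10, a stromelysin gene near MMP1 on chromosome 11, had 4, 7 and 6 counts with the combination, 0, 1 and 0 with ATRi, 0 in all 3 5-Ph-IAA libraries, and 1, 0 and 1 in DMSO. The combination libraries of MMP10 did not overlap any other group, whereas 1 5-Ph-IAA library reached the combination range of TNF. CSF2, the granulocyte and macrophage growth factor, had 7, 7 and 4 counts there, 2, 2 and 1 with ATRi, 4, 6 and 5 with 5-Ph-IAA, and 1, 1 and 4 in DMSO, so that the combination and 5-Ph-IAA ranges overlapped. MMP13, the gene with the most counts of the 9, was highest with 5-Ph-IAA. It had 7, 8 and 8 counts with the combination, 6, 8 and 9 with ATRi, 9, 10 and 10 with 5-Ph-IAA, and 4, 0 and 4 in DMSO. Summed over 3 libraries a group, the 9 genes had 87 counts with the combination, 36 with ATRi, 49 with 5-Ph-IAA and 22 in DMSO. MMP13 made up 29 of the 49 counts with 5-Ph-IAA. No test was made on these sums. In an alternative fit with no count filter, MMP10 was called higher with the combination than with 5-Ph-IAA, where it had no count (adjusted p = 0.0208, edgeR), and no other call was made among the 9 genes in any contrast.

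**Figure D1:**
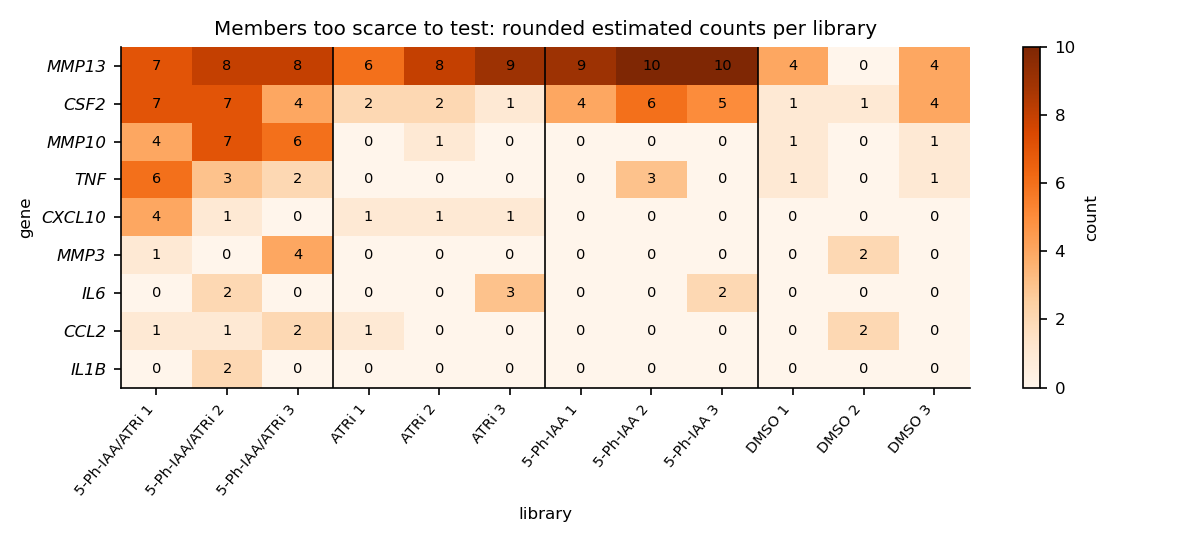
Rounded estimated counts of the 9 silent or scarce genes (rows) in each of the 12 libraries (columns, in groups of 3 from the combination on the left to DMSO on the right). No cell exceeds 10 counts. MMP10, TNF, CSF2, MMP13 and CCL2 have counts in all 3 combination libraries, and CSF2 has counts in all 12 libraries. IL6 never exceeds 3.

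The remaining 32 genes were tested in 1 fit over 18049 genes, and a gene was called at an adjusted p under 0.05. Their levels differed widely even in the vehicle group. Per kilobase of the longest coding transcript, TIMP1, an inhibitor of matrix metalloproteinases, led in DMSO at 206 CPM per kilobase, followed by IL18 at 105 and the plasminogen activator gene PLAU at 63.1. MMP1 was at the bottom of the same order at 0.0423 CPM per kilobase. Transcripts of protease inhibitors, of PLAU and of IL18 were thus abundant in cells given the vehicle alone, and that of the collagenase was scarce.

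Neither compound alone moved a member past the threshold. With 5-Ph-IAA, 0 of 32 members were called against DMSO in edgeR's quasi-likelihood test, where 0.00554% of all tested genes were called. In that contrast 1 member, LIF, had an unadjusted p under 0.05, as did 239 of all 18049 tested genes. With ATRi, 0 of 32 were called, against 0.0665% of all tested genes. Unadjusted p was under 0.05 for 4 members with ATRi: MMP1, CSF1, IGFBP3 and LIF. The same was true of 877 of all 18049 tested genes. For IGFBP3 the 5-Ph-IAA libraries lay above, and for LIF below, all DMSO libraries, a separation seen in 3.37% of all tested genes, 1.99% higher and 1.38% lower. With ATRi the same held for CSF1, MMP1 and IGFBP3 above and LIF below, where 8.8% of all tested genes were separated, 4.73% higher and 4.07% lower. DESeq2 called MMP1 with ATRi and no member with 5-Ph-IAA. The median log2 difference over the members was 0.05 with ATRi and -0.05 with 5-Ph-IAA, beside -0.02 and -0.01 over all tested genes in the same order.

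The combination did change members. Against DMSO, 8 of 32 were called, 7 higher and 1 lower, where 13.1% of all tested genes were called, 6.24% higher and 6.89% lower. The genes that rose were MMP1, IGFBP6, IGFBP3, RELB, CSF1, BIRC3 and CXCL16, and LIF fell. Of the 32 members, 26 had a positive difference (48.1% of all tested genes did), with a median log2 difference of 0.35 beside -0.02 over all tested genes. These counts are a description, because MMP1 entered the test only through its level in the ATRi and combination libraries, and CCL20 would not have entered without the combination libraries. For 12 members every combination library was above every DMSO library, and for 2 every one was below, where 16.4% and 15.9% of all tested genes did so.

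**Figure D2:**
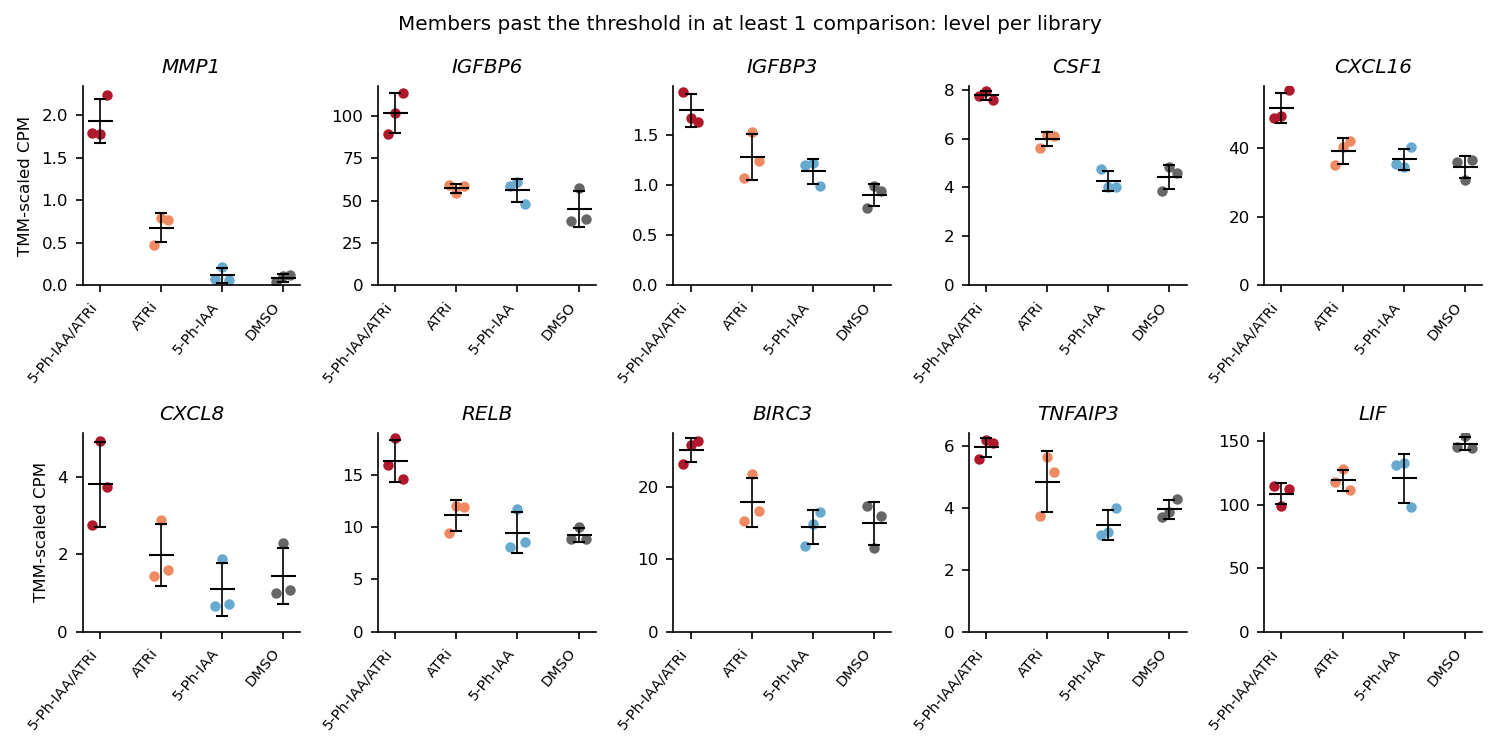
TMM-scaled CPM (vertical axis, from 0) of the 10 members called in at least 1 comparison, by group from the combination on the left to DMSO on the right. Points are libraries, dashes are means and bars are SD over 3 libraries. For MMP1 the combination libraries sit between 1.78 and 2.24 CPM and the DMSO libraries between 0.0309 and 0.113, while LIF is the gene whose combination libraries lie below DMSO.

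Of the NF-kB subunits, RELB was the one called against DMSO in the main fit. RELB (ENSG00000104856.15, chr19:45001464-45038192 on GRCh38.p14) encodes the transactivating partner in the alternative branch of the pathway and is itself an NF-kB target. It had 15.9, 18.5 and 14.6 CPM in combination libraries, 9.43, 12.1 and 11.9 with ATRi, 8.13, 11.7 and 8.62 with 5-Ph-IAA, and 8.91, 10.0 and 8.84 in DMSO. The combination libraries lay above all 9 others. The log2 difference between combination and DMSO was 0.82 ± 0.17 (SE; adjusted p = 0.00998, edgeR).

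RELA, the main transactivating subunit of the canonical branch, had 82.1, 75.8 and 85.6 CPM with the combination, 68.0, 72.5 and 82.7 with ATRi, 65.4, 68.0 and 72.7 with 5-Ph-IAA, and 64.8, 61.9 and 72.8 in DMSO. Combination and DMSO libraries did not overlap, but the log2 difference of 0.29 ± 0.11 missed the threshold (adjusted p = 0.131, edgeR). RELA was called higher with the replicate block and with the mitochondrial share as covariate. NFKB1, a precursor subunit of the canonical branch, had 23.0, 24.6 and 33.9 CPM with the combination, 19.0, 27.0 and 36.1 with ATRi, 14.9, 26.3 and 40.9 with 5-Ph-IAA, and 29.8, 22.6 and 40.2 in DMSO. The spread within each group exceeded the differences between group means. NFKB2, the precursor that pairs with RELB, had 121, 114 and 111 CPM with the combination, 129.6, 108 and 94.2 with ATRi, 136, 104 and 80.9 with 5-Ph-IAA, and 102, 140.3 and 91.6 in DMSO. Its groups overlapped completely (log2 difference 0.05 ± 0.21, adjusted p = 0.908, edgeR).

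**Figure D3:**
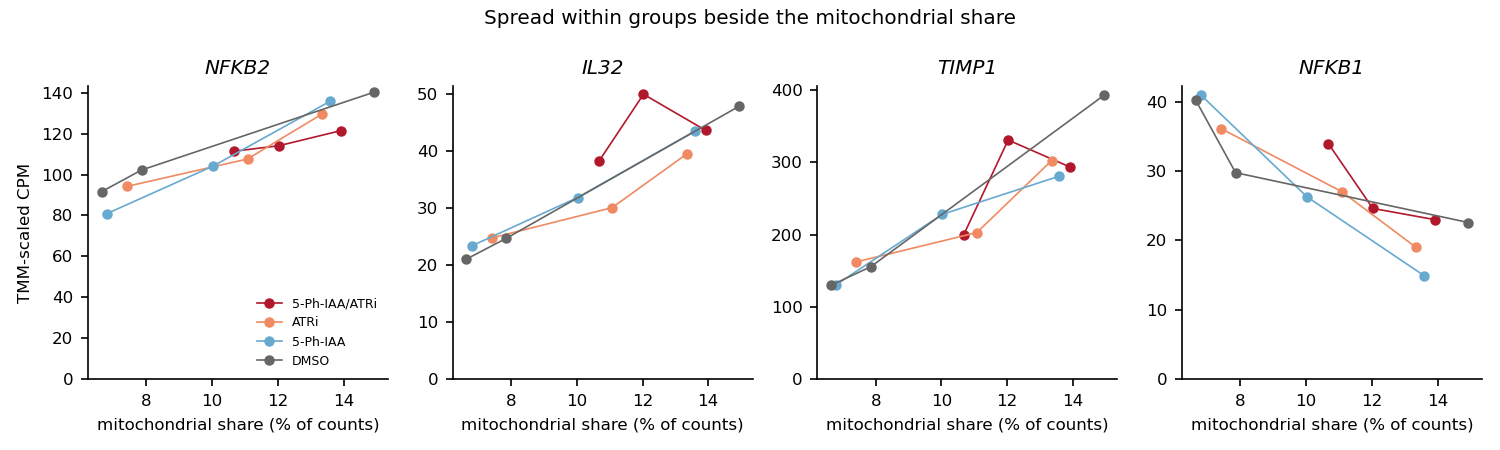
TMM-scaled CPM (vertical axis) of NFKB2, IL32, TIMP1 and NFKB1 against the mitochondrial share of counts (horizontal axis, %) in the 12 libraries, with lines joining the 3 libraries of a group. NFKB2 is highest, and NFKB1 lowest, in the library with the highest share of each of the 4 groups.

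The spread within groups was set beside the mitochondrial share. In all 4 groups, the library with the highest share also had the highest level of 1 of the 32 members, NFKB2, and the lowest level of 3, NFKB1, BIRC3 and MMP14. Over all tested genes the same held for 10.6% at the top and 11% at the bottom, so the members did so no more often. The part of the share in the results was not tested beyond the fits that carry it as a covariate or leave out those libraries.

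Of the 4 feedback and target genes, BIRC3 was called against DMSO. BIRC3 (ENSG00000023445.17, chr11:102317484-102339403), an inhibitor of apoptosis that restrains the alternative branch, had 23.2, 25.7 and 26.2 CPM in combination libraries, 15.2, 21.7 and 16.6 with ATRi, 11.8, 14.8 and 16.5 with 5-Ph-IAA, and 17.3, 11.5 and 15.9 in DMSO. Again the combination libraries were the 3 highest of 12. The log2 difference from DMSO was 0.75 ± 0.19 (adjusted p = 0.0251, edgeR), a call that ended without DMSO replicate 2 or 3 or any combination library (adjusted p up to 0.0856).

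NFKBIA (ENSG00000100906.12, chr14:35401513-35404749), the gene of the inhibitor that holds NF-kB in the cytoplasm, had 33.3, 42.3 and 38.9 CPM with the combination, 25.8, 32.0 and 35.1 with ATRi, 22.8, 30.1 and 31.4 with 5-Ph-IAA, and 23.5, 25.6 and 31.3 in DMSO. TNFAIP3 (ENSG00000118503.18, chr6:137866349-137883312), a ubiquitin-editing enzyme that ends NF-kB signalling, had 5.58, 6.18 and 6.07 CPM with the combination, 3.73, 5.62 and 5.16 with ATRi, 3.12, 3.21 and 3.98 with 5-Ph-IAA, and 3.71, 3.84 and 4.28 in DMSO. Both genes separated combination from DMSO libraries without passing the threshold, and both passed it with upper quartile factors, in DESeq2, with the replicate block and with the mitochondrial share as covariate. Their log2 differences were 0.51 ± 0.17 for NFKBIA (adjusted p = 0.0787, edgeR) and 0.59 ± 0.19 for TNFAIP3 (adjusted p = 0.0614, edgeR). TNFAIP2, another target, averaged 93.8 ± 7.15 CPM with the combination and 80.9 ± 24.1 in DMSO, and ICAM1, which binds leukocyte integrins, averaged 3.23 ± 0.157 and 3.52 ± 0.368 CPM in the same groups. Neither differed beyond its spread.

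Among the chemokines, CXCL16 was the one called against DMSO in the main fit. CXCL16 (ENSG00000161921.17, chr17:4733533-4739928), a membrane-anchored ligand that can be shed to attract T cells, had 48.8, 49.5 and 56.8 CPM in combination libraries, 34.9, 40.3 and 42.1 with ATRi, 35.4, 34.5 and 40.2 with 5-Ph-IAA, and 36.0, 30.7 and 36.4 in DMSO. All 3 combination libraries exceeded the other 9. The log2 difference from DMSO was 0.59 ± 0.12 (adjusted p = 0.00998, edgeR), and the call was lost without combination replicate 3 (adjusted p = 0.0524). MED11 overlaps CXCL16 on the opposite strand with up to 368 counts in a library, and since the strand setting of the counting is not given in the sources used here, reads of the pair cannot be told apart.

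CXCL8 (ENSG00000169429.12, chr4:73740569-73743716), the neutrophil attractant, had 2.76, 4.94 and 3.76 CPM in combination libraries, 1.43, 2.90 and 1.61 with ATRi, 0.654, 1.89 and 0.726 with 5-Ph-IAA, and 0.990, 2.29 and 1.08 in DMSO. Replicate 2 was the highest in every group, and the combination exceeded DMSO without overlap. The log2 difference of 1.40 ± 0.48 missed the threshold (adjusted p = 0.0788, edgeR). Without DMSO replicate 2 CXCL8 was called at 1.88 ± 0.50 (adjusted p = 0.0329, edgeR). CXCL8 was also called without 5-Ph-IAA replicate 2, in DESeq2, in limma-voom and in the fit of 8 libraries. With the replicate block, or the mitochondrial share as covariate, it was called as well.

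CXCL1 (ENSG00000163739.5, chr4:73869393-73871308), another neutrophil attractant, had 2.0, 2.94 and 1.95 CPM with the combination, 1.40, 1.77 and 0.931 with ATRi, 0.763, 1.83 and 0.639 with 5-Ph-IAA, and 0.866, 2.79 and 0.737 in DMSO. DMSO replicate 2 reached the combination range, and the other DMSO libraries were below it (log2 difference 0.66 ± 0.53, adjusted p = 0.481, edgeR). CXCL2 and CXCL3 are close paralogs of CXCL1 that can share its reads, and their estimates were not whole numbers in 10 and 9 of 12 libraries. Summing the 3 paralogs gave 4.94, 7.23 and 4.33 CPM with the combination, 3.67, 4.31 and 2.93 with ATRi, 2.14, 5.38 and 2.03 with 5-Ph-IAA, and 2.13, 8.25 and 2.04 in DMSO. The highest of all 12 sums was DMSO replicate 2, and the other DMSO libraries were below every combination library. CCL20, which attracts memory lymphocytes and dendritic cells, stayed at or below 0.497 CPM everywhere, with 0.382 ± 0.105 CPM with the combination and 0.191 ± 0.194 in DMSO.

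The interleukins gave no call in the main fit. IL1A (ENSG00000115008.6), an alarmin that starts the secretory cascade from the cell surface, had 0.394, 0.581 and 0.426 CPM in combination libraries, 0.179, 0.367 and 0.367 with ATRi, 0.0726, 0.458 and 0.116 with 5-Ph-IAA, and 0.155, 0.423 and 0.170 in DMSO. Again replicate 2 was the highest DMSO library, inside the combination range (log2 difference 0.92 ± 0.62, adjusted p = 0.388, edgeR). IL18, an epithelial cytokine made as an inactive precursor, was plentiful at 132 ± 11.1 CPM with the combination and 120.0 ± 24.9 in DMSO. IL32 averaged 43.9 ± 5.86 CPM with the combination and 31.1 ± 14.5 in DMSO, where replicate 2 alone, at 47.8 CPM, reached the combination range. IL15, a growth factor for natural killer cells, averaged 5.87 ± 0.353 and 5.38 ± 0.302 CPM, and IL11, a relative of IL6, averaged 4.09 ± 0.662 and 3.41 ± 1.42 CPM, combination before DMSO.

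The growth factor cytokines CSF1 and LIF went opposite ways. CSF1 (ENSG00000184371.14, chr1:109910506-109930992), the growth factor of macrophages, had 7.77, 7.96 and 7.60 CPM in combination libraries, 5.64, 6.17 and 6.12 with ATRi, 4.76, 4.0 and 4.04 with 5-Ph-IAA, and 3.87, 4.83 and 4.59 in DMSO. The groups formed steps, with the combination above ATRi and ATRi above both 5-Ph-IAA and DMSO. The log2 difference of combination from DMSO was 0.81 ± 0.15 (adjusted p = 0.00466, edgeR), and that of ATRi from DMSO was 0.43 ± 0.15 (adjusted p = 0.776). LIF (ENSG00000128342.5, chr22:30240453-30246759), a cytokine of the IL6 family, had 115, 98.9 and 113 CPM with the combination, 118, 128 and 111 with ATRi, 131, 132 and 98.2 with 5-Ph-IAA, and 146, 154 and 145 in DMSO. Every treated library of LIF was below every DMSO library. The combination fell by 0.45 ± 0.13 on the log2 scale (adjusted p = 0.0463, edgeR), and the call held when 5-Ph-IAA replicate 1 or 3 was left out and was lost without any other library (adjusted p up to 0.167). The edgeR log2 differences of LIF from DMSO were -0.32 ± 0.13 with ATRi (adjusted p = 0.95) and -0.30 ± 0.13 with 5-Ph-IAA (adjusted p = 1).

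MMP1 had the highest fold difference of the set. MMP1 (ENSG00000196611.6, chr11:102789919-102798160) encodes interstitial collagenase, a protease of fibrillar collagen and a recurrent member of the senescence secretome. Its estimated counts were 50, 49 and 63 in combination libraries, 16, 26 and 27 with ATRi, 2, 7 and 2 with 5-Ph-IAA, and 1, 3 and 4 in DMSO, or 1.94 ± 0.261, 0.678 ± 0.174, 0.115 ± 0.0860 and 0.0834 ± 0.0456 CPM. The combination lay above ATRi, and ATRi above both other groups, with no overlap. From summed counts the combination was 23.2-fold higher than DMSO, with a 95% exact counting interval of 11.5 to 54.7, and ATRi was 8.14-fold higher than DMSO, with an interval of 3.91 to 19.6. Intervals of this kind cover counting error only. The fitted log2 differences from DMSO were 4.47 ± 0.50 with the combination (adjusted p = 0.000288, edgeR), 2.97 ± 0.51 with ATRi (adjusted p = 0.0743) and 0.46 ± 0.60 with 5-Ph-IAA (adjusted p = 1). MMP1 reached the level of the count filter in 0 DMSO and 0 5-Ph-IAA libraries. It thus entered the test through the ATRi and combination libraries, where it was higher, and its calls are a description. The antisense gene WTAPP1, which overlaps MMP1, had 1 count over all 12 libraries.

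MMP7 (ENSG00000137673.9), or matrilysin, an epithelial metalloproteinase, ran the other way. It had 3.33, 3.6 and 2.73 CPM in combination libraries, 6.80, 5.01 and 3.19 with ATRi, 7.12, 6.84 and 4.33 with 5-Ph-IAA, and 5.69, 5.29 and 3.77 in DMSO. Combination libraries lay below DMSO and 5-Ph-IAA without overlap, but the log2 difference from DMSO of -0.61 ± 0.30 missed the threshold (adjusted p = 0.215, edgeR). MMP7 was called lower than in DMSO with the replicate block and with the mitochondrial share as covariate. MMP14, a membrane-bound metalloproteinase, averaged 11.4 ± 1.81 CPM with the combination and 10.7 ± 0.916 in DMSO.

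The inhibitor genes and the plasminogen genes were not called in the main fit, and all but PLAT were abundant. TIMP1 had 293, 331 and 199.7 CPM with the combination and 156, 393 and 129.8 in DMSO, and DMSO replicate 2 was the highest of all 12 libraries. TIMP2, the inhibitor that also helps to activate a gelatinase, averaged 190.0 ± 19.5 CPM with the combination and 142 ± 16.6 in DMSO without overlap (log2 difference 0.42 ± 0.16, adjusted p = 0.107, edgeR). TIMP2 was called with upper quartile factors, with the replicate block and with the mitochondrial share as covariate. PLAU, the urokinase gene, had 139.6, 144 and 135 CPM with the combination and 124, 279 and 99.6 in DMSO. Its receptor gene PLAUR averaged 60.0 ± 12.8 CPM with the combination and 55.5 ± 11.2 in DMSO, and PLAT, the tissue-type activator, averaged 9.44 ± 0.556 and 8.59 ± 2.34 CPM in the same groups.

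Both IGF binding protein genes rose with the combination. IGFBP6 (ENSG00000167779.9, chr12:53097667-53102340), whose product preferentially binds IGF2, had 89.6, 102 and 114 CPM in combination libraries, 59.3, 54.4 and 58.5 with ATRi, 58.8, 61.2 and 48.1 with 5-Ph-IAA, and 38.0, 57.5 and 39.4 in DMSO. The combination stood clear of the other 9 libraries, which overlapped each other. The log2 difference from DMSO was 1.18 ± 0.17 (adjusted p = 0.00131, edgeR). IGFBP3 (ENSG00000146674.16, chr7:45912245-45921272), the main IGF carrier of the circulation and a gene induced by p53, had 1.93, 1.67 and 1.63 CPM with the combination, 1.07, 1.53 and 1.24 with ATRi, 1.20, 1.22 and 0.987 with 5-Ph-IAA, and 0.773, 0.987 and 0.935 in DMSO. Its 3 combination libraries were also the highest of the 12. The log2 difference from DMSO was 0.96 ± 0.23 (adjusted p = 0.0198, edgeR), and the call was lost without DMSO replicate 1 or 3 or any combination library (adjusted p up to 0.0874).

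**Figure D4:**
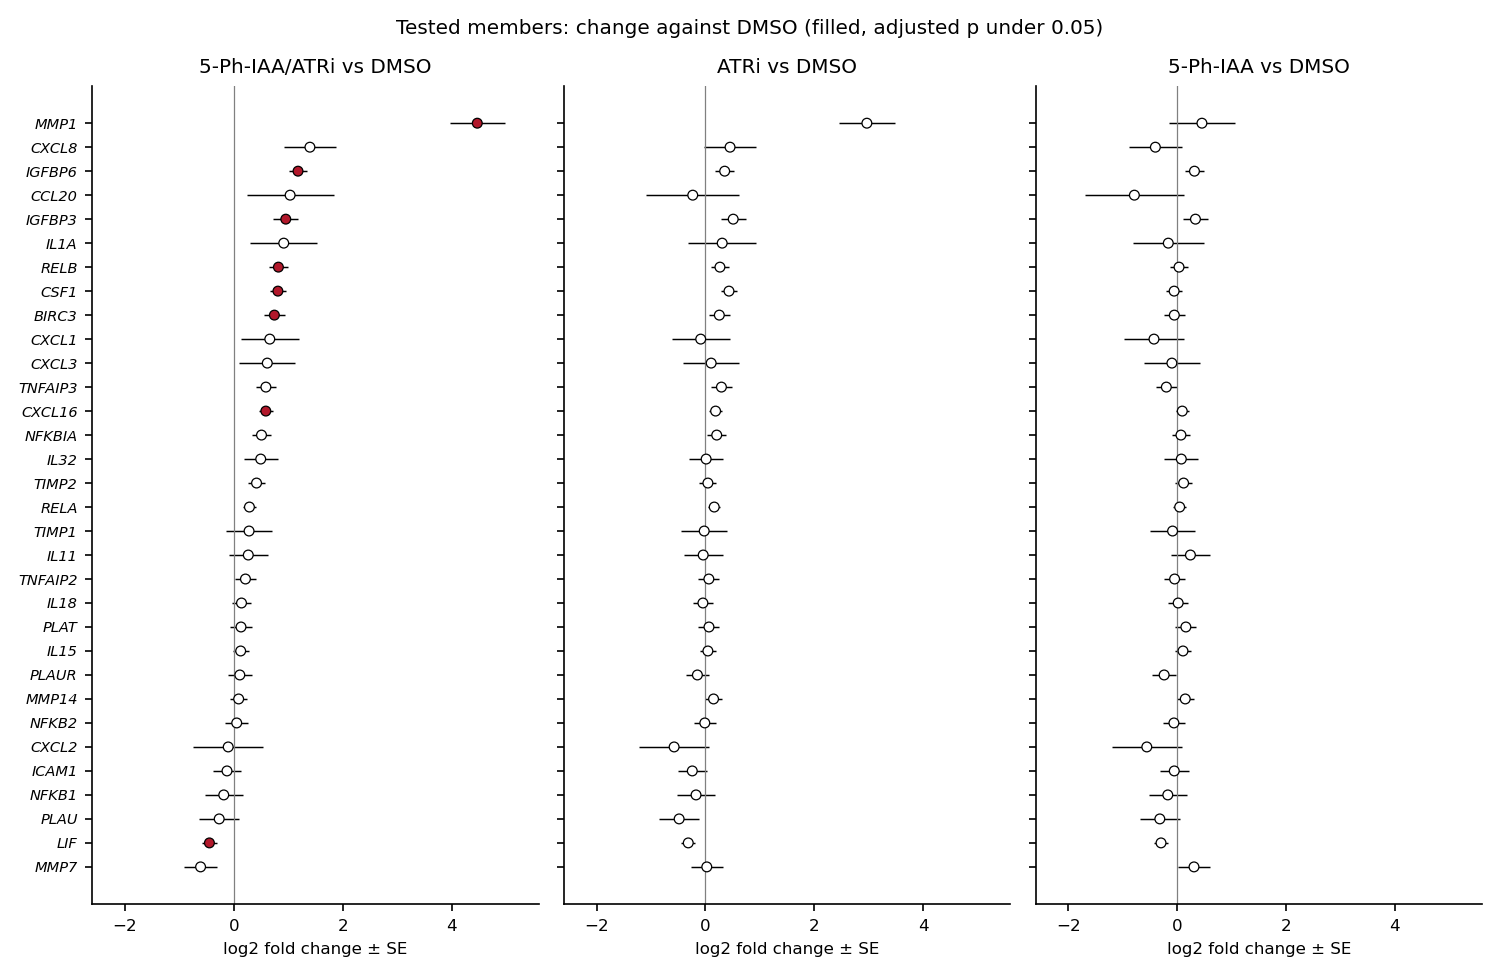
Log2 difference from DMSO with its SE (horizontal axis) for the 32 tested members (rows, ordered by the combination), with the combination on the left, ATRi in the middle and 5-Ph-IAA on the right. Filled points passed an adjusted p under 0.05. In the combination panel 8 points are filled, from MMP1 at 4.47 to LIF at -0.45, and neither other panel has a filled point.

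The combination was also compared with each agent alone. Against 5-Ph-IAA, 8 of 32 members were called, all higher, where 9.41% of all tested genes were called, 4.38% higher and 5.04% lower. They were MMP1 (log2 difference 4.02 ± 0.48, adjusted p = 0.000704, edgeR), CSF1 (0.87 ± 0.15, adjusted p = 0.00486), IGFBP6 (0.86 ± 0.17, adjusted p = 0.00989), RELB (0.79 ± 0.17, adjusted p = 0.0164), TNFAIP3 (0.79 ± 0.19, adjusted p = 0.0239), BIRC3 (0.80 ± 0.19, adjusted p = 0.024), CXCL16 (0.49 ± 0.12, adjusted p = 0.0291) and CXCL8 (1.80 ± 0.48, adjusted p = 0.0394). Of these, MMP1, CSF1 and IGFBP6 were also called with each library left out in turn. The other 5 were lost together, leaving 3 calls, without 5-Ph-IAA replicate 1 or without combination replicate 1 or 2. The MMP1 call is a description here too, since MMP1 entered the test through the ATRi and combination libraries. Deviations from the group means correlated between same-numbered libraries of these 2 groups. The labels name a shared set for them without stating what it shares. With the replicate number as a block in a fit of these groups alone, 11 members were called, 10 higher and 1 lower, where 21.1% of all genes tested in that fit were called, 9.59% higher and 11.6% lower. CXCL1 rose (log2 difference 1.18 ± 0.28, adjusted p = 0.0122), NFKBIA rose (0.44 ± 0.13, adjusted p = 0.0269) and MMP7 fell by 0.90 ± 0.19 (adjusted p = 0.00678) in that blocked edgeR fit.

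Against ATRi, 1 of 32 members was called, where 3.51% of all tested genes were called, 1.63% higher and 1.88% lower. This was IGFBP6, with a log2 difference of 0.83 ± 0.17 (adjusted p = 0.0258, edgeR), and the call was lost without any 1 of the ATRi or combination libraries (adjusted p up to 0.114). MMP1 differed by 1.51 ± 0.40 (adjusted p = 0.0643, edgeR), or 2.86-fold with a 95% counting interval of 2.14 to 3.84. RELB differed by 0.55 ± 0.17 (adjusted p = 0.111, edgeR) and CSF1 by 0.38 ± 0.15 (adjusted p = 0.209). For 11 members every combination library was above every ATRi library, and for 0 members below, where 12.9% and 14% of all tested genes did so.

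Whether the combination exceeded the sum of both single changes was asked with the interaction term. It called 0 of 32 members in edgeR's quasi-likelihood test, and 0 in DESeq2 and limma-voom. In the edgeR test 0.0776% of all tested genes were called, 0.0111% with a positive term. Of the members MMP7 alone had an unadjusted p under 0.05, as did 1317 of all 18049 tested genes. The comparisons share the DMSO libraries, so the values are set side by side only. The combination had a log2 difference of 4.47 for MMP1, against a sum of 3.42 for the compounds alone. The same pair of values was 1.18 and 0.67 for IGFBP6, 0.82 and 0.30 for RELB, 0.81 and 0.38 for CSF1, and 0.75 and 0.20 for BIRC3. For CXCL8 it was 1.40 and 0.05, for IGFBP3 0.96 and 0.85, and for LIF -0.45 and -0.61. The interaction estimate was positive in 28 of 32 members, with a median of 0.35, and in 50.3% of all tested genes. Without DMSO replicate 2 it was positive in 21 of 32, with a median of 0.13, so the size of this lean depended on that library.

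**Figure D5:**
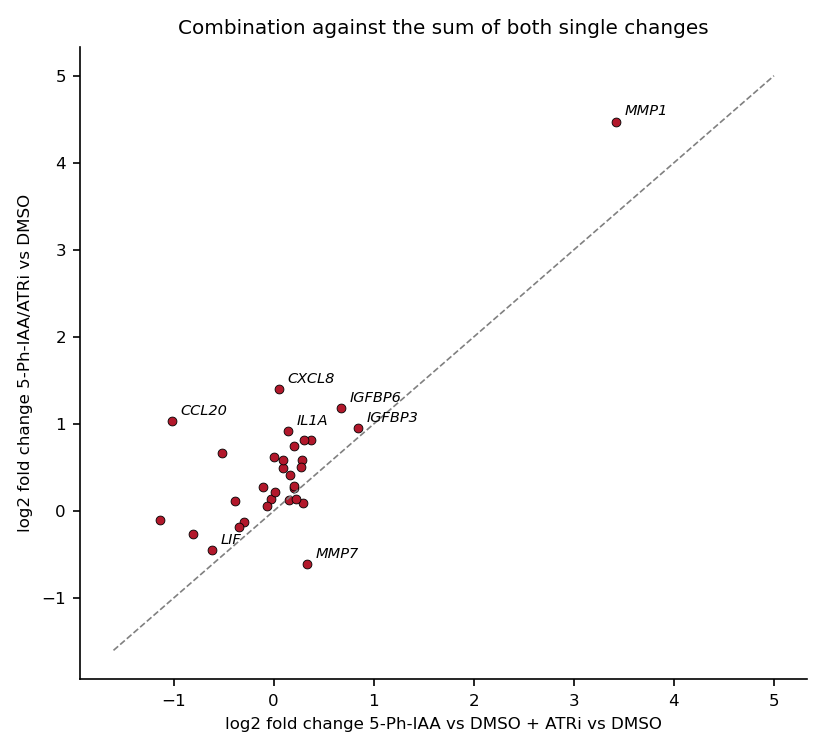
Log2 difference of the combination from DMSO (vertical axis) against the sum of the log2 differences of both compounds alone from DMSO (horizontal axis) for the 32 tested members. Each point is a gene, and the dashed line marks equality. MMP1 lies at 3.42 and 4.47, most points lie above the line, and MMP7 lies below it at 0.33 and -0.61.

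Lists of other genes of the pathway were compared between combination and DMSO in the same fit. In it 13.1% of all tested genes were called, 6.24% higher and 6.89% lower. The share called in a list ran from 1 of 13 kinases to 5 of 15 inhibitors and partners. All lists were short and were chosen with earlier results of these data known, so their counts are a description. Of 15 genes listed as inhibitors or partners of NF-kB, all tested, 5 rose and 0 fell, with a median log2 difference of 0.25. The list is broad and includes the stress enzyme gene HMOX1, so the count does not describe dedicated NF-kB inhibitors alone. Those with the smallest adjusted p were HMOX1, the stress-induced heme oxygenase (1.08 ± 0.13, adjusted p = 0.000494, edgeR), PDLIM2, which promotes turnover of nuclear RELA (0.92 ± 0.16, adjusted p = 0.0035), and NFKBIB, a relative of NFKBIA (0.50 ± 0.11, adjusted p = 0.0106). Of 13 kinases of the pathway, 0 rose and 1, MAP3K3, fell (-0.49 ± 0.14, adjusted p = 0.0384, edgeR). Of 23 tested receptors and adaptors, 2 rose and 2 fell, with a median of -0.05. TLR3, the sensor of double-stranded RNA, rose (1.97 ± 0.31, adjusted p = 0.00225, edgeR), as did MYD88, the adaptor of most other Toll-like receptors (0.59 ± 0.14, adjusted p = 0.0205), while TRAF5, an adaptor of receptors of the TNF family, fell (-0.71 ± 0.16, adjusted p = 0.0116).

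Of 36 other secretory genes 17 were tested, 2 rose and 0 fell, with a median of -0.19. ANGPTL4, a secreted inhibitor of lipoprotein lipase, rose (1.19 ± 0.19, adjusted p = 0.00229, edgeR), and so did IL13 (2.15 ± 0.63, adjusted p = 0.0439), which had at most 13 counts in a library and entered the test only through its level in the combination libraries. Of 19 receptors for the listed cytokines and proteases 10 were tested, 3 rose and 0 fell, with a median of -0.14. CXCR2, the receptor of CXCL1 and CXCL8, had 0.573, 0.799 and 0.746 CPM in combination libraries, 0.418, 0.428 and 0.480 with ATRi, 0.291, 0.336 and 0.232 with 5-Ph-IAA, and 0.155, 0.176 and 0.0850 in DMSO. Its 4 groups did not overlap, and the combination differed from DMSO by 2.33 ± 0.36 on the log2 scale (adjusted p = 0.00175, edgeR). CXCR2 was near the floor, however, with DMSO replicate 3 at the floor of 3 counts. It reached the 0.315 CPM of the count filter in 0 DMSO libraries and 1 5-Ph-IAA library. It thus entered the test through the ATRi and combination libraries, where it was higher, and the call is a description. IL15RA (0.56 ± 0.15, adjusted p = 0.0297, edgeR) and IL6R (0.76 ± 0.21, adjusted p = 0.0378) rose as well. IL15RA presents IL15, a ligand whose own gene was not called.

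Of 18 tested regulators of the secretory response, 1 rose and 3 fell, with a median of -0.04. HMGB2, a chromatin protein that keeps secretory gene loci open in senescent fibroblasts, had 78.5, 92.4 and 79.8 CPM in combination libraries and 509.8, 376 and 465 in DMSO (log2 difference -2.43 ± 0.23, adjusted p = 9.4e-05, edgeR). HMGB1, its relative that is released from stressed cells, also fell (-1.27 ± 0.23, adjusted p = 0.00483, edgeR), and NOTCH1, a receptor that shifts the make-up of the secretome, rose (0.72 ± 0.16, adjusted p = 0.0113). With either compound alone, 0 genes of any of these 6 lists were called by edgeR's quasi-likelihood test.

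Markers of other cell types were read beside these genes. Of 8 leukocyte markers 5 were tested, and CD68, CD14 and ITGAM rose, CD14 having entered the test only through the combination libraries, and the summed level was 33.5 to 41.3 CPM with the combination, 12.2 to 17.7 with ATRi, 9.84 to 19.4 with 5-Ph-IAA and 9.91 to 12.2 in DMSO. LYZ and CSF1R, also tested, were not called. PTPRC had at most 5 counts in any library, and CD3E had at most 2. The fibroblast sum was 43.9 to 70.1 CPM with the combination and 35.8 to 106.5 in DMSO. Of 8 such markers 2 were tested, COL1A1 (-0.31 ± 0.45) and PDGFRB (0.40 ± 0.40), and neither was called. The rest did not pass the count filter and 3 of them were silent, so the sum does not stand for the set. LUM and THY1 had no more than 1 count in a library and DCN no more than 2. The endothelial sum was 1.83 to 2.18 CPM with the combination and 1.16 to 2.47 in DMSO. The epithelial sum was carried by KRT8, KRT18 and KRT19, which rose (1.35 ± 0.14, 1.04 ± 0.26 and 0.89 ± 0.20), while EPCAM differed by -0.35 ± 0.18 and CDH1 by 0.06 ± 0.16, neither past the threshold. The part of these markers in the result was not tested.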

How the data were processed

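Per the submitters' processing notes, reads were checked with FastQC 0.12.1, trimmed with Trim Galore 0.6.7 and cutadapt 3.4, and processed with STAR 2.7.9a, SAMtools 1.17 and Salmon 1.10.1 on GRCh38.p14. The authors deposited estimated counts per gene, which need not be whole: 6.93% of values differed from a whole number by more than 0.01, and all were rounded here. Neither the annotation release nor the strand setting was stated in the sources used here.

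The fit was edgeR 4.0.16 (R 4.3.3), with TMM factors, filterByExpr (minimum count 10, minimum total 15) and the quasi-likelihood test in 1 model of all 12 libraries. It gave 5 pairwise contrasts and the interaction, with Benjamini-Hochberg adjustment over 18049 genes and a threshold of 0.05. Tested genes held at least 99.9% of counts. SE is the absolute log2 difference divided by the square root of F. An exact permutation test of 3 libraries against 3 cannot go below p = 0.1, so none was used. The procedure was tested on simulated data.

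The members and all gene lists were chosen with earlier results of these data known. Values per library are given for the members called in any contrast and for a fixed set of subunits and cytokines. Of each pathway list, up to 3 genes with the smallest adjusted p are named. MMP7, TIMP1, PLAU and CXCR2 are given per library by choice after their values were seen. Replicate libraries of a group gave a chi-square of 15.4 to 230.2 per gene between their counts, so none was counted as a duplicate.

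Deviations from the group means in same-numbered libraries of the combination and 5-Ph-IAA correlated at 0.54, 0.26 and 0.69, all above 0.1. In every other compared pair at least 1 correlation was lower. For 5-Ph-IAA and ATRi, not compared directly, they were 0.84, 0.43 and 0.81. The mitochondrial share fell from replicate 1 to 3 in the combination (13.9, 12.0 and 10.7%) and with 5-Ph-IAA (13.6, 10.0 and 6.79%). Shared cultures cannot be told apart here from this shared order, and the labels name sets without saying what their samples share. Alternatives were other scalings and filters, DESeq2 1.42.0, limma-voom (limma 3.58.1), a replicate block, the mitochondrial share as a covariate, the compared groups alone, 8 libraries without the highest mitochondrial share in each group, and each library left out.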

Additional observations from a re-analysis of the deposited data

How the results depend on the processing

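All 8 calls between combination and DMSO kept their direction under every alternative run, and MMP1, IGFBP6, CSF1 and RELB were called under each of them. For MMP1 the calls in fits with a count filter are a description, since groups where it was high carried it past the filter. The count of 8 became 14 with the replicate block, 14 with the mitochondrial share as covariate, 11 in DESeq2, and 4 to 9 with libraries left out. With no count filter or only the groups compared the count was 6, and with 8 libraries it was 7, each time without IGFBP3 and LIF. It was 4 without combination replicate 3, 5 without combination replicate 1 or 2 or DMSO replicate 3, and 9 without DMSO replicate 2, which lost BIRC3 and LIF and added CXCL8, CXCL3 and IL32. Over all tested genes the 2370 calls became 4569 with the block, 6449 with the covariate and 1236 to 2574 with libraries left out. Those against 5-Ph-IAA, 1699, became 3546, 5507 and 777 to 2030 in the same order, with 2557 in DESeq2, 1033 with the groups compared and 805 with 8 libraries. Those against ATRi, 634, became 1980, 3188 and 134 to 866, with 1461, 970 and 64 in those further settings. ATRi against DMSO had 12 such calls, 100 with the block, 122 with the covariate, 102 in DESeq2 and 28 with no count filter, and the interaction 14, 215, 278, 212 and 47. Against 5-Ph-IAA the 8 calls became 12 with the covariate, which added MMP7, NFKBIA, RELA and TIMP2, 11 with the replicate block, 9 in DESeq2, 4 in a fit of the groups compared, 3 with 8 libraries, and 3 to 8 with libraries left out. Against ATRi the 1 call became 2 with upper quartile factors, limma-voom or only the groups compared, 4 in DESeq2, 6 with the replicate block, 7 with the covariate, 0 with 8 libraries, and 0 to 2 with libraries left out. ATRi against DMSO gave 1 call, MMP1, with no count filter, in DESeq2, with the replicate block and with the covariate. The contrast of 5-Ph-IAA with DMSO and the interaction gave 0 member calls under every alternative. Silent members numbered 8 with a floor of 10 counts and 0 with a floor of 1 count, against 2. The causes were not tested. For the combination and 5-Ph-IAA the replicate block rests on the set label in the titles and on correlated deviations. For other compared pairs the samples share the set label, without such a correlation in every set. Depth limits the 9 genes with at most 10 counts, which were tested only with no count filter, where MMP10 was called against 5-Ph-IAA.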
